A study of Danio rerio with 9 samples.

Results

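The embryonic globin genes of the zebrafish were taken as the rows of the count table whose gene symbol was hbae1.3, hbae3, hbae5, hbbe1.1, hbbe1.2, hbbe1.3, hbbe2 or hbbe3. These are 8 of the 24614 genes in the table, 3 of them alpha and 5 of them beta globin genes. A ninth symbol of the rule, hbae1.1, matched no row. All 8 members were among the 17031 genes that were tested after genes with low counts were left out. Polyadenylated RNA was sequenced from whole embryos in 9 libraries, 3 from embryos injected with a morpholino against dhps, 3 with a morpholino against eif5a1/2 and 3 with a control morpholino. Strain, dose, mode of action of the morpholinos and number of embryos in a library were not given in the sources used here, nor whether replicates came from separate clutches, so that p-values measure the spread between these libraries. The design text places the collection 24 hours after fertilization, and the treatment label places the extraction 24 hours after the morpholino. The gene dhps encodes deoxyhypusine synthase, the enzyme that starts hypusination of eIF5A, a factor in protein synthesis. The pair of knockdowns thus targets the modifying enzyme and the factor itself, and these libraries measure neither protein nor hypusination.

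Hemoglobin is a tetramer of alpha and beta globin chains, each holding a heme group with iron that binds oxygen. Zebrafish, like other vertebrates, make embryonic chains in the primitive red blood cells that form first, and switch to adult chains in later erythrocytes. In the zebrafish the alpha and beta genes stand side by side in a major and a minor cluster, so that a gene of one chain often neighbours a gene of the other. The transcripts are short and very abundant in erythroid cells, which makes a globin level in a whole embryo a joint readout of the number of these cells and of RNA per cell. Fewer cells of this type and less RNA per cell cannot be told apart in these libraries.

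The members fall into both clusters by the order of genes in an NCBI table of another assembly (GRCz12tu), used here for names and neighbours only. The major cluster on chromosome 3 holds 5 members in the order hbbe1.1, hbbe1.2, hbae1.3, hbbe1.3 and hbae3, with further alpha genes between them. On chromosome 12 the minor cluster holds the other 3, in the order hbbe3, hbbe2 and hbae5, next to the row hbz. Names of 3 alpha copies differ between the table and NCBI for the same gene ID. The row hbae1.3 (gene ID 572729) is hbae1.2 at NCBI, the row LOC100334599 (100334599) is NCBI's hbae1.3, and the row hbae1 (30597) is NCBI's hbae1.1. Below, hbae1.3 means the row of that symbol in the deposited table. Counts that were not whole, which arise when reads are divided between similar transcripts, stood in 9 of 9 libraries for hbbe1.1, hbbe1.2 and hbbe1.3 and in 8 of 9 for hbae1.3. No library had one for hbae3, hbae5, hbbe2 or hbbe3. Levels of the 4 genes with divided reads are therefore uncertain one by one, and sums over alpha and beta genes are given beside them.

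The libraries held between 15952645 and 17482524 counts. The targeted gene eif5a stood at 227.0 ± 12.7 CPM (counts brought to a common, TMM-scaled library size) in eif5a1/2 embryos and 1363 ± 169 CPM in control embryos (SD, n = 3 each). The dhps transcript stood at 9.38 ± 1.02 CPM in dhps embryos and 14.5 ± 1.35 CPM in control embryos (SD, n = 3 each). The second target, eif5a2, stood at 213 ± 67.7 CPM in eif5a1/2 embryos and 278 ± 79.8 CPM in control embryos (SD, n = 3 each), with overlapping libraries. Libraries also differed by transcript length. The slope of each library's log2 CPM, relative to the mean of all libraries, on log2 transcript length was positive (0.0398 to 0.140) in 5 libraries, which were all 3 of dhps, eif5a1/2 replicate 2 and control replicate 2. It was negative (-0.121 to -0.0602) in the other 4, which were eif5a1/2 replicates 1 and 3 and control replicates 1 and 3. Globin transcripts are among the shortest measured, with the 8 members at percentiles 0.644 to 2.23 of relative length.

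The members spanned a wide range of abundance in the whole embryo. On the TPM scale, which corrects counts for transcript length, hbae1.3 ranked between 60 and 99 among the 24614 genes in all libraries, while hbbe2 ranked between 342 and 845 and hbae5 between 1495 and 5487. The 8 genes together took 0.376%, 0.624% and 0.294% of the counts in the dhps libraries 1, 2 and 3. They took 0.431%, 0.370% and 0.580% in the eif5a1/2 libraries, and 0.849%, 0.497% and 0.811% in the control libraries. Each share has a 95% Wilson interval of at most 0.00438 percentage points to either side, which covers counting error only. The share in control replicate 2 thus lay between those of dhps replicates 1 and 2, far from the other control libraries.

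The order of TPM levels among members was steep at its ends and shallow in the middle. In control embryos hbae1.3 stood at 4813 ± 887 TPM, followed by hbae3 at 2577 ± 560.2, hbbe1.1 at 2464 ± 687, hbbe3 at 2331 ± 242, hbbe1.2 at 1914 ± 157, hbbe1.3 at 1262 ± 331, hbbe2 at 222 ± 24.3 and hbae5 at 28.5 ± 3.6 TPM (SD, n = 3). The alpha gene hbae1.3 was the highest member, hbbe2 the second lowest and hbae5 the lowest in each of the 9 libraries. Ranges of neighbours from hbae3 to hbbe1.2 in that order overlapped in control libraries. Within libraries, hbae3 lay above hbbe1.1 and hbbe1.2 in every control library, and hbbe3 above hbbe1.2 in each of the 9 libraries. The order of the others changed between control libraries. Likewise in dhps embryos, hbae1.3 stood at 3470.1 ± 1169.8 TPM, hbbe3 at 2053 ± 765, hbbe1.1 at 1745 ± 930.1, hbae3 at 1689 ± 554, hbbe1.2 at 1362 ± 419, hbbe1.3 at 768 ± 361, hbbe2 at 227 ± 73.4 and hbae5 at 28.9 ± 11.7 TPM (SD, n = 3). In eif5a1/2 embryos hbae1.3 stood at 3400.4 ± 687 TPM, hbbe3 at 1959 ± 361, hbae3 at 1807 ± 436, hbbe1.1 at 1614 ± 359.5, hbbe1.2 at 1423 ± 156, hbbe1.3 at 786 ± 186, hbbe2 at 137 ± 28.9 and hbae5 at 15.1 ± 5.22 TPM (SD, n = 3). The minor-cluster gene hbbe3 thus followed hbae3 and hbbe1.1 by group mean in control embryos and stood before them in both knockdowns, within a set of neighbours whose ranges overlapped in every group.

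The first comparison asks how targeting the hypusinating enzyme changed globin transcripts. Each of the 8 members was lower on average in dhps than in control embryos, with log2 fold changes from -1.42 to -0.64 and a median of -1.15, where the median of all genes tested was 0.003. None passed the test of single genes at an adjusted p under 0.05, which 1.29% of all genes passed in either direction. Unadjusted p was under 0.05 for 6 of the 8, against 11.4% of all genes that were lower at that threshold.

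Among the alpha chains, hbae1.3 stood at 1060.0, 1669.6 and 804 CPM in dhps libraries 1, 2 and 3, against 3201, 1429 and 3269.9 CPM in control libraries 1, 2 and 3. Control replicates 1 and 3 lay far above every dhps library, and control replicate 2 lay below dhps replicate 2, so the groups overlapped. The log2 fold change was -1.16 ± 0.40 (SE; edgeR adjusted p = 0.186). Its cluster neighbour hbae3, for which no counts were divided, stood at 543, 881 and 439.7 CPM in dhps libraries, against 1826, 778 and 2018 CPM in control libraries. It showed the same layout, with control replicate 2 between dhps replicates 1 and 2, and a log2 fold change of -1.31 ± 0.42 (edgeR adjusted p = 0.168). The minor-cluster alpha gene hbae5 stood at 8.24, 15.6 and 6.96 CPM in dhps libraries, against 17.2, 9.65 and 21.7 CPM in control libraries. Its difference was smaller, at a log2 fold change of -0.65 ± 0.48 (edgeR adjusted p = 0.433), and the groups overlapped.

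Of the beta chains, hbbe1.2 was the member whose groups did not overlap. It stood at 408, 696 and 377 CPM in dhps libraries, against 1284, 711 and 1284 CPM in control libraries, a log2 fold change of -1.15 ± 0.36 (edgeR adjusted p = 0.157). The gap rested on dhps replicate 2 and control replicate 2, which nearly met. Groups that did not overlap, with dhps lower, were found for 15.7% of all genes tested. Its near copy hbbe1.1 stood at 443, 1066 and 401 CPM in dhps libraries, against 1791, 664 and 1935 CPM in control libraries (log2 -1.20 ± 0.49, edgeR adjusted p = 0.231). The third copy, hbbe1.3, stood at 218, 478 and 200.2 CPM in dhps libraries, against 995, 376 and 1019 CPM in control libraries, and had the lowest fold change of the members (log2 -1.42 ± 0.49, edgeR adjusted p = 0.187). For both of these copies, dhps replicate 2 lay above control replicate 2.

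The beta genes of the minor cluster differed less. Here hbbe3 stood at 392, 699 and 328 CPM in dhps libraries, against 986, 526 and 1036 CPM in control libraries (log2 -0.84 ± 0.36, edgeR adjusted p = 0.240). Its neighbour hbbe2 stood at 62.7, 95.7 and 47.1 CPM in dhps libraries, against 126, 65.7 and 128 CPM in control libraries (log2 -0.64 ± 0.41, edgeR adjusted p = 0.376). For both, control replicate 2 lay below dhps replicate 2 and above dhps replicate 3. The 3 members of the minor cluster had the 3 smallest differences of the 8.

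**Figure D1:**
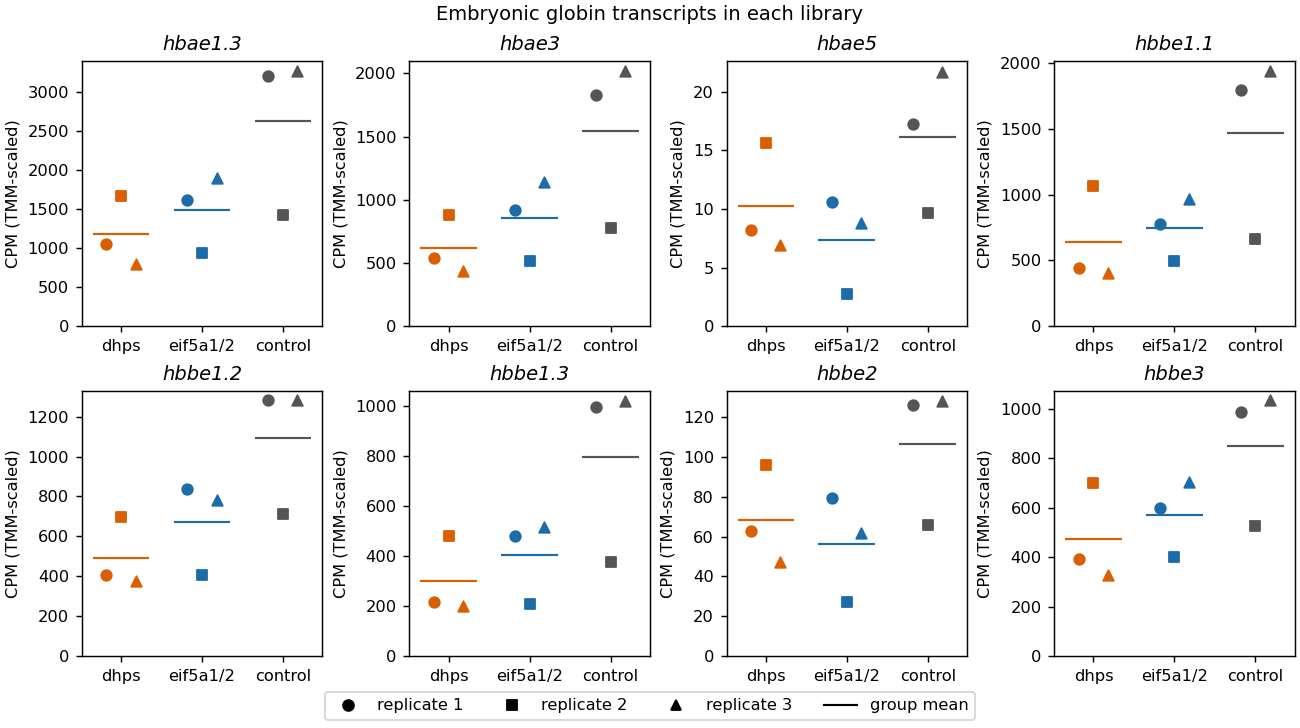
Scaled CPM of each of the 8 embryonic globin genes in every library, with dhps, eif5a1/2 and control embryos from left to right on the x axis, a symbol for each replicate and a line at the group mean. In each panel control replicates 1 and 3 stand at the top and control replicate 2 lies near the knockdown libraries; in hbae1.3 it stood at 1429 CPM, against 3201 and 3269.9 CPM.

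Summed over chains, the picture was the same. The alpha sum was 1611, 2566 and 1251 CPM in dhps libraries, against 5045, 2216 and 5309 CPM in control libraries (log2 ratio of group means -1.21). The beta sum was 1523, 3035 and 1354 CPM in dhps libraries, against 5181, 2343 and 5403 CPM in control libraries (log2 ratio -1.13). Both sums overlapped between the groups, through dhps replicate 2 and control replicate 2. Within the 5 libraries of positive length slope, which hold 1 control library, the log2 ratio was -0.29 for alpha and -0.25 for beta. No dhps library had a negative slope, so the other libraries give no value for this comparison. On the TPM scale, the log2 ratio was -0.52 for alpha and -0.41 for beta, with no member whose groups were apart with dhps lower, against 1.61% of all genes. On that scale the median of all genes tested stood 0.58 higher in dhps than in control embryos, and relative to it the members' median was -1.06. With library totals alone the median of all genes stood 0.36 higher in dhps embryos, and relative to it the members' median was -1.10.

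Calls of the members depended on the tool and on the libraries. DESeq2 called 4 members lower (hbae1.3, hbae3, hbbe1.2 and hbbe1.3, with adjusted p between 0.0249 and 0.0420), against 3.86% of all genes it tested. Limma-voom called none, against 0.605% of all genes. In the authors' deposited table, hbae1.3 and hbbe1.2 had q-values of 0.0120 and 0.00268, and the other 6 members had q-values above 0.05, against 3.22% of genes called lower by that table. Without control replicate 2, hbae3 passed the edgeR test (log2 -1.63, adjusted p = 0.0447), against 2.46% of all genes called lower. Without control replicate 2 and eif5a1/2 replicate 2 together, all 8 members passed in dhps against control (log2 -1.75 to -0.89, edgeR adjusted p 0.000564 to 0.0448), but so did 18.4% of all genes in that direction. With the length slope entered as a covariate, none passed (edgeR adjusted p 0.194 to 0.889), where 3.11% of all genes were called lower, and hbae5 and hbbe2 were at 0.24 and 0.10 while the other 6 remained negative, between -0.60 and -0.34. All dhps libraries had a positive length slope, and its part in the difference was not tested beyond these fits.

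The next comparison sets the morpholino against the factor itself beside the control. Again each of the 8 members was lower on average, in eif5a1/2 than in control embryos, with log2 fold changes from -1.14 to -0.58 and a median of -0.89, where the median of all genes tested was 0.01. In the fit of all 9 libraries none passed at an adjusted p under 0.05, which 0.153% of all genes passed in either direction. Unadjusted p was under 0.05 for hbae5 alone, against 4.8% of all genes that were lower at that threshold. No member had CPM groups that did not overlap, against 6.65% of all genes with eif5a1/2 lower. DESeq2 and limma-voom called none of the members, against 0.836% and 0.0705% of all genes called lower, and no member had a q-value under 0.05 in the authors' deposited table (lowest 0.922).

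Library by library, hbae1.3 stood at 1618, 937 and 1904 CPM in eif5a1/2 libraries 1, 2 and 3, beside 3201, 1429 and 3269.9 CPM in control libraries 1, 2 and 3 (log2 -0.82 ± 0.40, edgeR adjusted p = 0.597). Values of hbae3 were 921, 517 and 1141 CPM in eif5a1/2 libraries, and 1826, 778 and 2018 CPM in control libraries (log2 -0.84 ± 0.42, edgeR adjusted p = 0.611). In both groups replicate 2 was the low library of these alpha genes. The values of hbae5 were 10.6, 2.77 and 8.85 CPM in eif5a1/2 libraries, and 17.2, 9.65 and 21.7 CPM in control libraries, with the lowest fold change of the members (log2 -1.14 ± 0.50, edgeR adjusted p = 0.536). Only eif5a1/2 replicate 1 reached above the lowest control library of that gene.

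For the beta genes of the major cluster, hbbe1.1 stood at 776, 492 and 969 CPM in eif5a1/2 libraries, against 1791, 664 and 1935 CPM in control libraries (log2 -0.97 ± 0.49, edgeR adjusted p = 0.613). Levels of hbbe1.2 were 836, 404 and 779.9 CPM in eif5a1/2 libraries, against 1284, 711 and 1284 CPM in control libraries (log2 -0.70 ± 0.36, edgeR adjusted p = 0.622). Each was again lowest, within its group, in replicate 2. Levels of hbbe1.3 were 480.4, 209.5 and 517 CPM in eif5a1/2 libraries, against 995, 376 and 1019 CPM in control libraries (log2 -0.99 ± 0.49, edgeR adjusted p = 0.610). In the minor cluster, hbbe2 stood at 79.4, 27.0 and 61.9 CPM in eif5a1/2 libraries, against 126, 65.7 and 128 CPM in control libraries (log2 -0.93 ± 0.42, edgeR adjusted p = 0.555). Its neighbour hbbe3 stood at 599.9, 401 and 704 CPM in eif5a1/2 libraries, against 986, 526 and 1036 CPM in control libraries, and had the smallest difference of the members (log2 -0.58 ± 0.36, edgeR adjusted p = 0.710).

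Same-numbered libraries of these groups deviated together over all genes, with correlations between 0.370 and 0.785 for the 3 numbers. Unlike numbers were correlated too, at 0.661 for eif5a1/2 replicate 1 with control replicate 3, above its own pair (0.459), and at 0.359 for eif5a1/2 replicate 3 with control replicate 1, close to its own pair (0.370). The number that stood apart was replicate 2, whose libraries had correlations between -0.718 and -0.455 with replicates 1 and 3 of the other group. Taken as pairs, all 8 members were lower in eif5a1/2 than in control in each of the 3 pairs. The log2 ratios lay between -1.21 and -0.62 in pair 1, between -1.80 and -0.39 in pair 2 and between -1.29 and -0.56 in pair 3. Being lower in all 3 pairs held for 18.9% of all genes tested. When the 2 groups were fitted alone with the replicate number as a block, 7 of the 8 members passed (edgeR adjusted p 0.00354 to 0.0275), against 1.17% of all genes called lower. They were hbbe2 (log2 -0.99), hbbe1.3 (-0.95), hbae5 (-1.22), hbae3 (-0.79), hbbe1.1 (-0.87), hbbe1.2 (-0.71) and hbae1.3 (-0.79), and hbbe3 did not pass (-0.55, edgeR adjusted p = 0.0674). A replicate block in the fit of all 9 libraries called none of the members (log2 -1.17 to -0.58, edgeR adjusted p 0.555 to 0.690), against 0.047% of all genes called lower. The pairing comes from the data and not from the labels, so the paired calls hold only under that pairing. The paired fit of the 2 groups alone also leaves fewer residual degrees of freedom than the fits of all 9 libraries.

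The alpha sum was 2549, 1457 and 3054 CPM in eif5a1/2 libraries, beside 5045, 2216 and 5309 CPM in control libraries (log2 ratio -0.83). The beta sum was 2772, 1534 and 3032 CPM in eif5a1/2 libraries, beside 5181, 2343 and 5403 CPM in control libraries (log2 ratio -0.82). The ratios were also negative within either class of libraries. In libraries of negative slope (2 a group) they were -0.89 for alpha and -0.87 for beta, and in those of positive slope (1 a group) they were -0.61 for both chains. With the slope as a covariate all 8 members remained lower, with log2 fold changes between -0.96 and -0.39, and none passed (edgeR adjusted p 0.0685 to 0.6), where 2.57% of all genes were called lower. On the TPM scale, hbae5, hbbe1.2 and hbbe2 had groups that were apart, with eif5a1/2 lower, against 1.34% of all genes. The median of all genes stood 0.30 higher in eif5a1/2 embryos on the TPM scale and 0.18 higher with library totals alone, and relative to it the members' median was -0.86 and -0.89 on these scales.

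**Figure D2:**
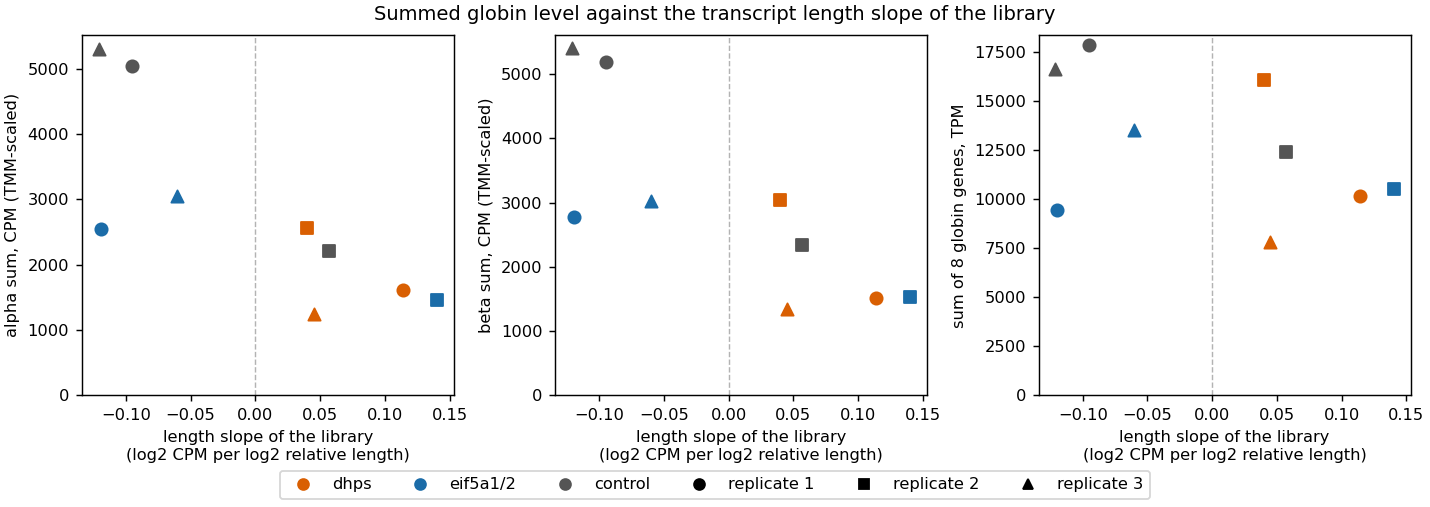
Summed globin level of each library against its length slope, as the alpha sum in CPM (left), the beta sum in CPM (middle) and the sum of all 8 genes in TPM (right), with colours for groups, symbols for replicates and a dashed line at a slope of 0. Alpha sums ran from 1251 to 2566 CPM in the 5 libraries of positive slope and from 2549 to 5309 CPM in the 4 of negative slope, where control lies above eif5a1/2.

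Both knockdowns are set against the same control libraries, so their likeness is not a result of its own. Set directly against each other, eif5a1/2 embryos had log2 fold changes over dhps embryos between -0.50 and 0.47, with a median of 0.30 where the median of all genes was 0.0003. The major-cluster members and hbbe3 were on the positive side, from 0.23 ± 0.48 for hbbe1.1 to 0.47 ± 0.42 for hbae3, while hbae5 (-0.50 ± 0.50) and hbbe2 (-0.29 ± 0.41) were on the negative side. None passed (edgeR adjusted p 0.618 to 0.865), where 1.77% of all genes did, and none had an unadjusted p under 0.05, where 14.5% of all genes did. No member's CPM groups were apart, against 20.9% of all genes. DESeq2 and limma-voom called none of the members, against 5.62% and 1.73% of all genes called in either direction, and the lowest q-value in the authors' deposited table was 0.840.

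The signs of this direct comparison changed between settings. The sums gave log2 ratios of 0.38 for alpha and 0.31 for beta in CPM, 0.01 and -0.06 in TPM, and -0.31 and -0.36 in the libraries of positive slope alone. Leaving out dhps replicate 2 gave 0.72 for alpha and 0.77 for beta, and leaving out eif5a1/2 replicate 3 or dhps replicate 3 gave as little as 0.16 and 0.10. Without control replicate 2 and eif5a1/2 replicate 2 together, hbae3 (0.73, edgeR adjusted p = 0.0440) and hbbe1.2 (0.71, edgeR adjusted p = 0.0302) passed as higher, as did 15% of all genes. With the length slope as a covariate, hbae5 passed as lower in eif5a1/2 embryos (-1.20, edgeR adjusted p = 0.0276), as did 4.97% of all genes. In TPM, hbae5 was at 17.7, 9.08 and 18.5 in eif5a1/2 libraries, against 25.0, 42.0 and 19.6 in dhps libraries, and was the member whose groups were apart, with eif5a1/2 lower, against 13.2% of all genes.

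**Figure D3:**
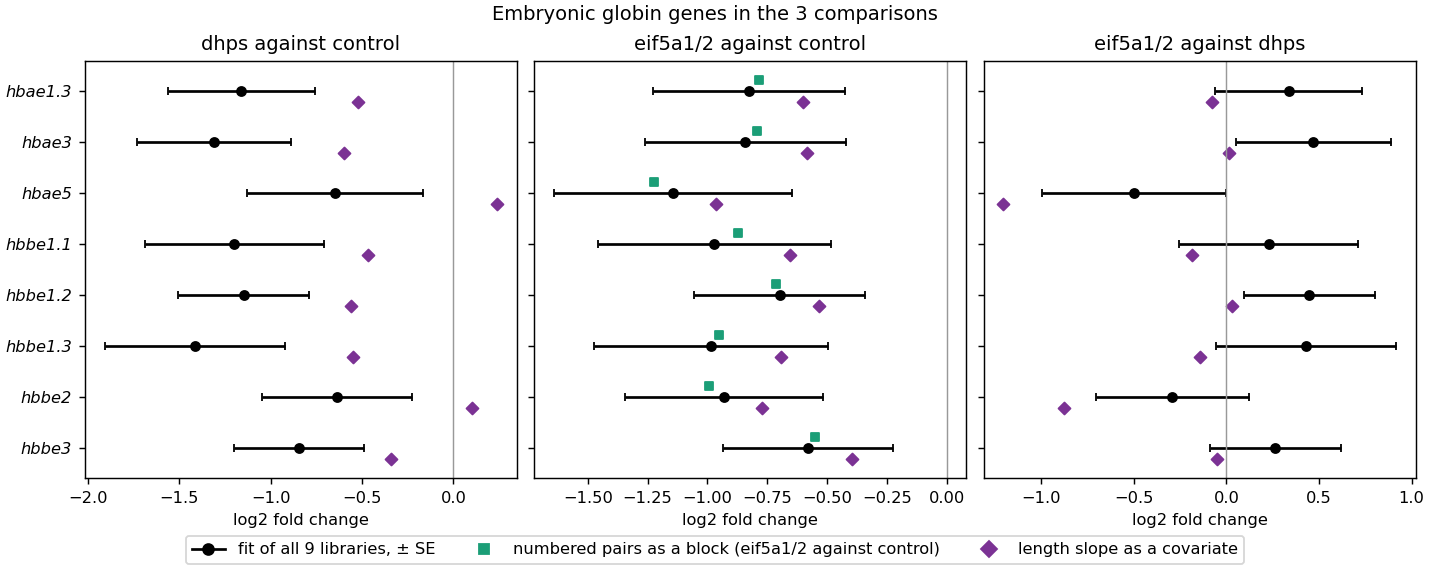
Log2 fold changes of the 8 genes in dhps against control, eif5a1/2 against control and eif5a1/2 against dhps embryos, as black points with SE from the fit of all 9 libraries, green squares from the paired fit (middle panel) and purple diamonds from the fit with the length slope as a covariate. All 8 black points lie below 0 against control in both knockdowns, with medians of -1.15 for dhps and -0.89 for eif5a1/2, and in the left panel the diamonds of hbae5 and hbbe2 cross 0.

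Shares of the minor-cluster genes in the globin pool were higher in every dhps library than in every control library. A share of the pool sets members against each other within a library and does not depend on how library sizes are scaled. The share of hbbe3 in the beta counts was 25.7%, 23.0% and 24.2% in dhps libraries and 21.6%, 26.2% and 23.2% in eif5a1/2 libraries, against 19.0%, 22.5% and 19.2% in control libraries. The share of hbbe2 was 4.12%, 3.15% and 3.48% in dhps libraries and 2.86%, 1.76% and 2.04% in eif5a1/2 libraries, against 2.43%, 2.81% and 2.37% in control libraries. The share of hbae5 in the alpha counts was 0.511%, 0.609% and 0.557% in dhps libraries and 0.416%, 0.190% and 0.290% in eif5a1/2 libraries, against 0.342%, 0.435% and 0.408% in control libraries. For hbbe3 the dhps and control groups nearly met, at 23.0% in dhps replicate 2 and 22.5% in control replicate 2. Over all genes tested, counts relative to the beta sum were apart with dhps higher than control for 12.9% of genes, and relative to the alpha sum for 23.2%. For hbbe2 and hbae5 the dhps shares also lay above every eif5a1/2 library. With eif5a1/2 lower than dhps, groups were apart for 1.66% of all genes relative to the beta sum and for 2.56% relative to the alpha sum. All dhps libraries had a positive length slope. The share of hbbe3 was highest in eif5a1/2 replicate 2 and dhps replicate 1, the libraries with the largest slopes (0.140 and 0.114). Within control and within eif5a1/2 libraries it was highest in replicate 2, the library of positive slope. The part of the slope in the shares of the minor-cluster genes was not tested. The share of hbae5 also depends on how reads of hbae1.3, which made up most alpha counts, were divided. No p is given for shares of a chosen list.

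**Figure D4:**
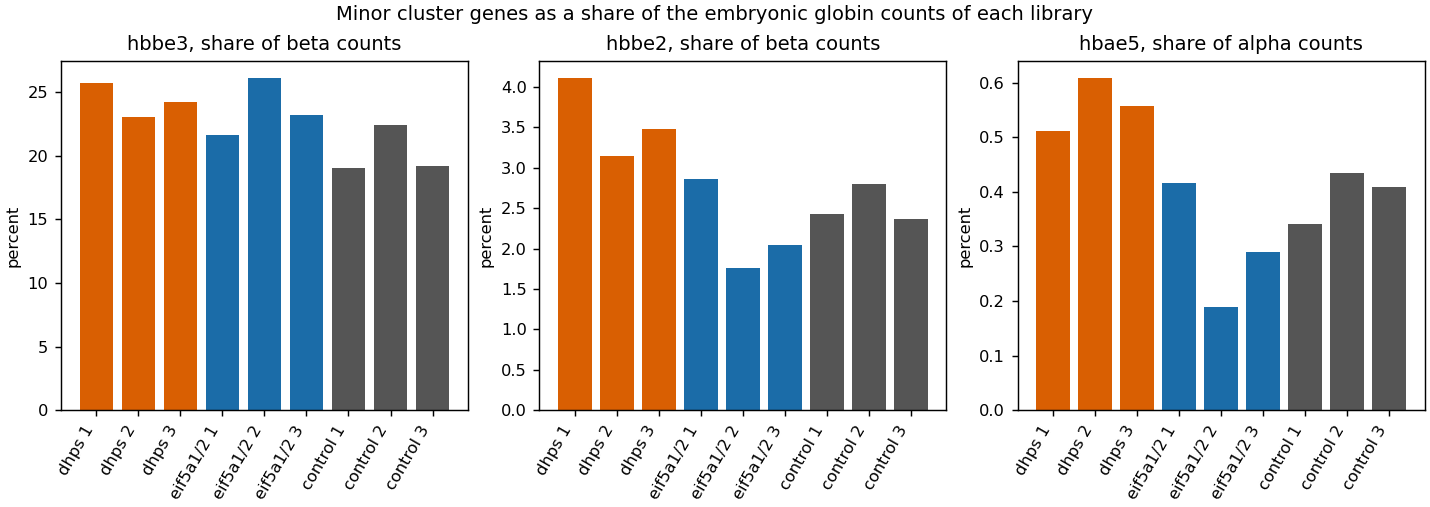
Share of hbbe3 and hbbe2 in the beta globin counts and of hbae5 in the alpha globin counts, in percent (y axis), for each library on the x axis, 1 bar a library. The dhps bars stand above every control bar in all 3 panels, for hbbe2 at 3.15% to 4.12% against 2.37% to 2.81%.

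Among major-cluster members, hbbe1.3 made up 14.9% ± 0.745 of the beta counts in dhps embryos and 18.03% ± 1.74 in control embryos (SD, n = 3 each), and its share in every dhps library lay below every control library. The highest dhps library (15.75%, replicate 2) and the lowest control library (16.04%, replicate 2) nearly met, and 0.123% of all genes were apart in that direction relative to the beta sum, which was itself lower on average in dhps embryos. In eif5a1/2 libraries 1, 2 and 3 the share of hbbe1.3 was 17.3%, 13.7% and 17.1%. Its shares in the 5 libraries of positive length slope, which include all dhps libraries, thus lay below those in the 4 of negative slope. The part of the slope in these shares was not tested. Counts of hbbe1.1, hbbe1.2 and hbbe1.3 were not whole in 9 of 9 libraries, so the share of hbbe1.3 also depends on how reads were divided. The shares of hbbe1.1 and hbbe1.2 overlapped between all groups. In alpha counts, hbae3 made up 36.3% ± 0.953 in eif5a1/2 embryos and 34.4% ± 0.733 in dhps embryos (SD, n = 3 each), with the groups apart. Groups were apart with eif5a1/2 higher for 0.816% of all genes relative to the alpha sum. The lowest eif5a1/2 library (35.48%, replicate 2) and the highest dhps library (35.15%, replicate 3) nearly met. Shares of hbae3 in the 5 libraries of positive length slope also lay below those in the 4 of negative slope, and the part of the slope was not tested. Most alpha counts were of hbae1.3, whose counts were not whole in 8 of 9 libraries, so this share depends on that division too. Alpha members made up 46.1% ± 2.64 of the summed TPM of members in dhps embryos, 46.7% ± 1.17 in eif5a1/2 embryos and 47.4% ± 0.679 in control embryos (SD, n = 3 each), with overlapping groups. With the alpha rows LOC100334599, hbz and hbae1 added, the alpha share was 50.7% ± 2.41, 50.7% ± 1.37 and 51.8% ± 1.17 in that order, again with overlapping groups. Among neighbours in the minor cluster, counts of hbbe3 were 7.56, 14.9 and 11.4 times those of hbbe2 in eif5a1/2 libraries and 6.25, 7.31 and 6.96 times in dhps libraries, against 7.82, 8.002 and 8.09 times in control libraries. The control libraries lay close together in that ratio, although their globin levels differed more than 2-fold, and eif5a1/2 replicates 2 and 3 lay above them.

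Other globin rows give a further view. The alpha row LOC100334599, which shares the major cluster, stood at 324, 601 and 229.9 CPM in dhps libraries and 438, 245 and 572 CPM in eif5a1/2 libraries, against 1032, 373 and 1122 CPM in control libraries. The row hbz, which NCBI names hbae4 and which lies beside hbbe3, stood at 5.11, 9.87 and 5.39 CPM in dhps libraries and 12.99, 4.97 and 11.801 CPM in eif5a1/2 libraries, against 18.3, 7.44 and 15.6 CPM in control libraries. Neither passed in a comparison with control (edgeR adjusted p 0.245 to 0.783). Counts of LOC100334599 were not whole in 9 of 9 libraries, so it may share reads with alpha members. Its level is therefore not independent of theirs. With LOC100334599, hbz and hbae1 added to the alpha sum, the log2 ratio was -1.20 in dhps against control, -0.86 in eif5a1/2 against control and 0.34 in eif5a1/2 against dhps. The row hbae1 held little, at 3.03 ± 1.58 CPM in dhps, 2.01 ± 0.864 in eif5a1/2 and 4.35 ± 4.79 in control embryos (SD, n = 3 each).

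Adult globin rows (hbaa1, hbaa2, hbba2 and ba1) and the neighbouring rows ba1l and si:ch211-5k11.8 held at most 1.24 CPM in any library and did not enter the test. Outside the hemoglobins, cygb1, a cytoglobin gene of many cell types, stood at 149.7, 155 and 167 CPM in dhps libraries and 255, 177 and 222 CPM in eif5a1/2 libraries, against 231, 197 and 233 CPM in control libraries. All dhps libraries lay below the others in CPM, where groups apart with dhps lower than control were found for 15.7% of all genes. The gene cygb1 did not pass in dhps against control (log2 -0.49 ± 0.15, edgeR adjusted p = 0.155). Its q-value in the authors' deposited table was 0.00599, where 3.22% of genes were called lower. In TPM the groups overlapped, at 27.4 ± 1.60 in dhps and 25.3 ± 5.74 in control embryos (SD, n = 3 each). Its transcript is long (percentile 92.2 of relative length). Myoglobin (mb), the oxygen store of muscle, stood at 3.71 ± 0.24 CPM in dhps, 3.38 ± 0.552 in eif5a1/2 and 3.77 ± 0.433 in control embryos (SD, n = 3 each). The large globin-domain gene adgb stood between 0.891 and 1.72 CPM, and cygb2, the neuroglobin gene ngb and xgb at no more than 0.609 CPM in any library. Of the 15 other globin rows in the table, 6 were tested. In the edgeR test 0 passed in any comparison, against 1.29%, 0.153% and 1.77% of all genes in dhps against control, eif5a1/2 against control and eif5a1/2 against dhps. In dhps against control 3 were lower at an unadjusted p under 0.05 (cygb1, hbz and LOC100334599), against 11.4% of all genes. Of these, LOC100334599 may share reads with members.

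Outside the members, the genes whose levels followed the sums most closely over the 9 libraries were sought by the root mean square difference of log2(CPM + 1), each centred on its own mean. For the alpha sum they were LOC100334599 (0.155), si:ch211-139a5.9 (0.195), hbz (0.227), crygmxl2 (0.229) and crygm2d10 (0.243), where the median over the 14877 genes compared was 0.709. For the beta sum LOC100334599 (0.165), si:ch211-139a5.9 (0.202) and hbz (0.205) came first again, followed by crybb1 (0.252) and crybb1l2 (0.259). Counts of LOC100334599 were not whole in 9 of 9 libraries. It may share reads with alpha members, so its place for the alpha sum may be partly built in. NCBI names si:ch211-139a5.9 fxyd2, and the cryg and cryb genes encode crystallins, the structural proteins of the lens. These genes also have short transcripts, at percentiles 0.540 to 18.5 of relative length, and the libraries they were compared over are those with the length slope described above.

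Genes that serve hemoglobin or the red blood cell had list medians nearer to 0 than the globin members in both comparisons with control. These lists also hold genes that are not limited to red blood cells, such as mibp2, which is known from muscle. Their medians in a whole embryo are therefore not a measure of red blood cells. The members have very short transcripts, and the part of the length slope in this contrast was not tested. Of all genes tested, 1.29% passed the edgeR test in dhps against control, 0.153% in eif5a1/2 against control and 1.77% in eif5a1/2 against dhps. Of 27 tested genes of heme synthesis and iron uptake, 0 passed in dhps against control, and their median log2 fold change was -0.11. In eif5a1/2 against control 1 fell, ppox, which encodes protoporphyrinogen oxidase of the heme pathway, at 2.42 ± 0.425 CPM in eif5a1/2 and 16.5 ± 1.22 CPM in control embryos (SD, n = 3 each; log2 -2.75 ± 0.17, edgeR adjusted p = 0.000209), while the list's median was -0.02. It was also lower than in dhps embryos, where it stood at 11.7 ± 1.51 CPM (log2 -2.27 ± 0.17, edgeR adjusted p = 0.000200). The first enzyme of heme synthesis in erythroid cells, alas2, stood at 26.4 ± 10.03 CPM in dhps, 35.2 ± 7.72 in eif5a1/2 and 34.5 ± 6.7 CPM in control embryos (SD, n = 3 each). Its log2 fold change was -0.39 in dhps against control and 0.03 in eif5a1/2 against control.

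Among 32 tested erythroid regulators, 1 rose in dhps against control, klf3 (log2 0.58 ± 0.12, edgeR adjusted p = 0.0480), a repressor of the Krüppel-like family, and 0 passed in the other comparisons. Of all genes, 1.29%, 0.153% and 1.77% passed in dhps against control, eif5a1/2 against control and eif5a1/2 against dhps. The median of the regulators was 0.04 in dhps and 0.07 in eif5a1/2 against control. The transcription factor gene gata1a, a master regulator of red cell fate, stood at 6.6 ± 2.57 CPM in dhps, 8.48 ± 1.75 in eif5a1/2 and 9.52 ± 1.89 CPM in control embryos (SD, n = 3 each). For klf17, which acts in primitive erythroid cells of the zebrafish, levels were 23.0 ± 3.06, 25.7 ± 3.97 and 24.5 ± 1.99 CPM in dhps, eif5a1/2 and control embryos in that order. Neither gata1a nor klf17 passed in any comparison. The marker nfe2 had log2 fold changes of -0.35 ± 0.28 in dhps and -0.28 ± 0.28 in eif5a1/2 against control. Next to klf3 by p in dhps against control came bcl11ab, which was lower (log2 -1.05 ± 0.25, edgeR adjusted p = 0.0834). After it came foxo3b, which was higher (log2 2.28 ± 0.54, edgeR adjusted p = 0.0845). The row si:dkey-25o16.2, which followed by p, was at -1.03 ± 0.35 in dhps and -0.75 ± 0.35 in eif5a1/2 against control (edgeR adjusted p = 0.184 and 0.578). Its level was 6.38 ± 3.11 CPM in dhps, 7.75 ± 2.60 in eif5a1/2 and 13.1 ± 3.29 CPM in control embryos (SD, n = 3 each). Of the list, 15 genes were lower and 17 higher in dhps against control, and 12 lower and 20 higher in eif5a1/2 against control.

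Of 27 tested genes of the erythrocyte membrane and cytosol, 1 fell in dhps against control, mibp2, a gene known from muscle (176 ± 11.01 CPM in dhps and 1061 ± 195 CPM in control embryos, SD, n = 3 each; log2 -2.59 ± 0.22, edgeR adjusted p = 0.00138). It was higher in eif5a1/2 than in dhps embryos (log2 1.83 ± 0.22, edgeR adjusted p = 0.00303). The list's median was -0.16 in dhps and -0.14 in eif5a1/2 against control, and 0 passed in eif5a1/2 against control. Of all genes, 1.29% passed in dhps against control, 0.153% in eif5a1/2 against control and 1.77% in eif5a1/2 against dhps. The anion exchanger gene slc4a1a, which marks erythroid cells, stood at 15.5 ± 7.45 CPM in dhps, 18.9 ± 7.18 in eif5a1/2 and 24.1 ± 4.32 CPM in control embryos (SD, n = 3 each), with log2 fold changes of -0.64 ± 0.36 and -0.34 ± 0.36 against control. The carbonic anhydrase gene cahz stood at 22.7 ± 8.8, 28.8 ± 5.15 and 25.4 ± 3.04 CPM in dhps, eif5a1/2 and control embryos in that order. Neither passed in any comparison. The erythroid markers gata1a, alas2, slc4a1a, cahz, klf17 and nfe2 were all present, while klf1 stood at no more than 1.05 CPM in any library and was not tested. Each of these tested markers was lower on average in dhps against control (log2 gata1a -0.52, alas2 -0.39, slc4a1a -0.64, cahz -0.16, klf17 -0.09 and nfe2 -0.35). In eif5a1/2 against control gata1a (-0.17), slc4a1a and nfe2 were lower, and alas2, cahz (0.18) and klf17 (0.07) were higher. None of these markers passed in either comparison. The gene hemgn was also chosen as an erythroid marker, and no row of that symbol is described here. List genes without a row of their symbol were matched by gene ID to rows of another symbol. The row si:dkey-25o16.2 (gene ID 564833) of the regulator list, described above, may thus be hemgn, which was not checked further.

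Each list of markers of other cell types except the thrombocyte list was detected in all groups, as the whole body label says. The part of these cell types in the globin values was not tested. The 3 thrombocyte genes were close to absent, at 0.890 to 1.94 CPM summed in dhps, 1.55 to 2.13 in eif5a1/2 and 1.24 to 2.79 CPM in control libraries. Of them, itga2b was at 0 CPM in all eif5a1/2 libraries. Summed over 7 endothelial genes, levels were 97.2 to 105 CPM in dhps, 102 to 118 in eif5a1/2 and 97.7 to 106 CPM in control libraries. The 8 myeloid genes summed to 68.1 to 74.2 CPM in dhps, 80.9 to 92.4 in eif5a1/2 and 72.0 to 79.9 CPM in control libraries. Of these lists 1 gene passed, the lysozyme gene lyz, which fell in dhps against control (log2 -1.24 ± 0.23, edgeR adjusted p = 0.0388). The 6 skeletal muscle genes summed to 14592 to 15757 CPM in dhps, 11054 to 20283 in eif5a1/2 and 17760.0 to 24721 CPM in control libraries, apart in dhps against control. Their list medians were -0.41 in dhps and -0.49 in eif5a1/2 against control. The 6 genes of the neuron list summed to 229.8 to 239.1 CPM in dhps, 233.0 to 259.9 in eif5a1/2 and 285.7 to 359.9 CPM in control libraries, so that all libraries of both knockdowns lay below every control library (list medians -0.35 and -0.36 against control). The gene elavl3 held the largest part of that sum. Of the 6 genes 1 was higher on average in both knockdowns, sox2, which marks neural progenitors rather than neurons. The 5 heart genes summed to 96.3 to 125.9 CPM in dhps, 116.9 to 172.0 in eif5a1/2 and 129.9 to 185.9 CPM in control libraries, apart in dhps against control (list medians -0.48 in dhps and -0.15 in eif5a1/2). Single genes with CPM groups apart from control in this way made up 15.7% of all genes tested with dhps lower and 6.65% with eif5a1/2 lower. No gene of the muscle, neuron, heart and thrombocyte lists passed the edgeR test. Of all genes, 1.29% passed it in dhps against control, 0.153% in eif5a1/2 against control and 1.77% in eif5a1/2 against dhps.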

How the data were processed

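The authors deposited expected counts, estimates that can divide reads between similar transcripts, and TPM for 24614 genes in 9 libraries, per the file headers; the reference was GRCz11, per the submitters' processing notes. The sources used here do not give the aligner, counting tool, annotation or use of strand. The authors' deposited comparison tables hold the log2 fold change of each gene with its p-value and q-value, and the −log10 of the q-value in dhps against control only, per the file headers. Values were rounded to whole counts for the test, since they are estimates. Genes with low counts were removed with edgeR's filterByExpr, which kept 17031 genes and at least 99.8% of the counts of each library. Library sizes were scaled by TMM, and edgeR's robust quasi-likelihood test (edgeR 4.0.16, R 4.3.3) was run in 1 fit of the 3 groups with 6 residual degrees of freedom. The common biological coefficient of variation was 0.225. Benjamini-Hochberg adjustment ran over all genes tested, with a threshold of 0.05, and the SE was taken from the F statistic. DESeq2 1.42.0 and limma-voom (limma 3.58.1) were run as alternatives. The edgeR script was tested on simulated data.

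Relative transcript length was taken from the ratio of counts to TPM. The length slope of a library is the regression of its centred log2 CPM on log2 relative length. No test was run on sums or shares. Same-numbered libraries correlated at 0.370 to 0.785 in eif5a1/2 and control, and at -0.440 to 0.111 in dhps and control and -0.438 to 0.168 in eif5a1/2 and dhps, so ratios within pairs are given for eif5a1/2 against control only. Fits of 2 groups alone with a replicate block were run for every comparison, and called 0 members in dhps against control and 0 in eif5a1/2 against dhps. The members and gene lists were chosen with earlier results of these data known, and 4 globin rows (hbae1, LOC100334599, ba1l and si:ch211-5k11.8) were added to the list of other globins after the files were read. Named were all members, all other globin rows, 5 genes nearest to each sum with a mean CPM of at least 1, and up to 4 genes of each other list with the smallest p. The genes alas2, gata1a, klf17, slc4a1a, cahz, klf1 and nfe2 were named as erythroid markers. The marker hemgn was also chosen, and no row of that symbol is described. List genes without a row of their symbol were matched by gene ID, so that hemgn may stand under another symbol. Gene IDs were matched to NCBI names of GRCz12tu, and no coordinates are given.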

Additional observations from a re-analysis of the deposited data

How the results depend on the processing

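Over 20 other settings, the members' log2 fold changes kept their sign in 158 of 160 values in dhps against control, 160 of 160 in eif5a1/2 against control and 151 of 160 in eif5a1/2 against dhps. They stayed on their side of the threshold in 147, 153 and 157 values of these comparisons in that order, and the cause of the changes was not tested. No member passed in the fit of all 9 libraries, against 1.29%, 0.153% and 1.77% of all genes in that order. DESeq2 called 4 members lower in dhps against control, against 3.86% of all genes it tested. Without control replicate 2 and eif5a1/2 replicate 2 together, 8 passed as lower in dhps against control, as did 18.4% of all genes. In that setting 2 passed as higher in eif5a1/2 against dhps, as did 15% of all genes. In the 2 groups alone with a replicate block, 7 passed as lower in eif5a1/2 against control, against 1.17% of all genes. In the fit with the length slope covariate, 1 passed as lower in eif5a1/2 against dhps, as did 4.97% of all genes. With 1 library left out at a time, 0 to 1 passed in dhps against control and 0 in the other comparisons. The 1 passed as lower without control replicate 2, as did 2.46% of all genes.

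Sign changes were as follows. In the fit with the length slope covariate, hbae5 was at 0.24 and hbbe2 at 0.10 in dhps against control, and hbae1.3 at -0.076, hbbe1.1 at -0.19, hbbe1.3 at -0.14 and hbbe3 at -0.053 in eif5a1/2 against dhps. In that direct comparison hbbe1.1 was at -0.0089 with library totals alone, and ran from -0.015 (without dhps replicate 3) to 0.82 (without dhps replicate 2). Leaving out 1 library, hbbe2 ran from -0.63 to 0.045 (without eif5a1/2 replicate 2), with 0.032 without dhps replicate 2, and it was at 0.044 without control replicate 2 and eif5a1/2 replicate 2 together.

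In dhps against control the alpha and beta sums had log2 ratios of -0.55 and -0.47 with copies summed in that fit, -0.52 and -0.41 in TPM, and -0.29 and -0.25 in libraries of positive length slope. Those libraries gave -0.31 and -0.36 in eif5a1/2 against dhps. With 1 library left out, the alpha sum ran from -1.56 to -1.01 in dhps against control and from -1.14 to -0.58 in eif5a1/2 against control, and the beta sum from -1.59 to -0.92 and from -1.12 to -0.57.

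Counts over all genes, which form the background, were 220, 26 and 302 in dhps against control, eif5a1/2 against control and eif5a1/2 against dhps. In the same order they were 97, 14 and 133 with library totals alone, 898, 215 and 827 by DESeq2, 1007, 811 and 1726 with the length slope covariate, and 6340, 176 and 4918 without control replicate 2 and eif5a1/2 replicate 2 together. The 2 groups alone gave 5 in eif5a1/2 against control and 156 in eif5a1/2 against dhps, and with a replicate block 24, 350 and 19. A replicate block over all 9 libraries gave 14 in eif5a1/2 against control and 183 in eif5a1/2 against dhps, with 0 members in any comparison. With 1 library left out the counts ran from 44 (without dhps replicate 3) to 807 (without control replicate 2), from 5 to 19, and from 66 (without dhps replicate 3) to 850 (without eif5a1/2 replicate 2). The paired fit, the TPM sums and the split by length slope were chosen after the data were seen. Depth did not limit the shares of the abundant members, while hbae5 reached at most 21.7 CPM.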
